A study of Mus musculus with 6 samples.

Results

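The genes described here encode the Toll-like, NOD-like and C-type lectin receptors, the germline-encoded sensors of innate immunity. They were picked by a rule on names and not on values, although earlier results of these data were known when it was set. The rule took protein-coding genes whose symbols name a Toll-like receptor (Tlr), a NOD-like receptor (Nod1, Nod2, Nlrc, Nlrp, Nlrx, Naip) or a C-type lectin (Clec), without Clec3b. This gave 68 of the 54532 genes listed, of which 12 were Toll-like receptors, 27 NOD-like receptors and 29 lectins. RNA-seq was performed on 6 whole colon tumor samples, 3 from Tmem173fl/fl mice (labelled WT), whose gene of STING (Tmem173) carries loxP sites on both sides, and 3 from Tmem173iΔmye mice (labelled CRE), which carry the same floxed allele together with Lzym-Creert2. This Cre is expressed from the lysozyme 2 promoter of monocytes, macrophages and neutrophils, and it deletes the floxed gene once tamoxifen (TAM) is given. Tumors were induced in both groups with azoxymethane, a colon carcinogen, and 3 cycles of dextran sulfate sodium, which injures the colon epithelium (AOM/DSS), and both groups received TAM only after tumors had formed. The labels give no age and do not tie a tumor to an animal, so the p-values below measure the spread between these tumors.

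Each library held 15329810 to 16533732 reads assigned to genes. Counts of Tmem173 itself were 1748, 2911 and 1705 among the Tmem173fl/fl tumors (replicates 1, 2 and 3) and 2291, 2245 and 1953 among the Tmem173iΔmye tumors (replicates 1, 2 and 3), an order kept for all values below. These ranges overlapped, with a log2 fold change of Tmem173iΔmye over Tmem173fl/fl of 0.0015 (standard error, SE, 0.24), so this gene did not tell the groups apart in whole tumor RNA, to which all cell types of the tumor contribute. Reads of Y-linked genes, 2655 or more per tumor, were present in 1 Tmem173fl/fl tumor and 2 Tmem173iΔmye tumors (at most 2 reads in each of the others), so the sexes were unevenly spread over the groups. The epithelial markers summed to between 9850 and 12800 CPM (counts scaled to a fixed library size) in every tumor, far above the 10 macrophage markers, which summed to 306 to 414 CPM in Tmem173fl/fl and 332 to 482 CPM in Tmem173iΔmye tumors. In such bulk RNA, fewer cells of a type and less RNA per cell cannot be told apart.

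Toll-like receptors sense microbial lipids, proteins and nucleic acids at the plasma membrane or inside endosomes, and most of them signal through the adaptor MyD88 to NF-κB and interferon regulatory factors. NOD-like receptors work in the cytosol: Nod1 and Nod2 sense fragments of bacterial peptidoglycan and recruit the kinase Ripk2, the NAIP proteins bind flagellin or parts of the bacterial type III secretion system and hand the signal to Nlrc4, and several NLRP proteins build inflammasomes that activate caspase-1. The lectin receptors of myeloid cells bind sugars and lipids of fungi and mycobacteria or products of dying cells, and many of them signal through the kinase Syk and Card9. In the gut these families lie between the microbiota and both the epithelium and the myeloid cells beneath it.

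Expression was first set out as FPKM (reads normalised for gene length and for the depth of the library), the scale on which genes can be compared with each other. A mean of at least 0.5 FPKM over the 6 tumors, the limit for testing, was reached by 37 of the 68 genes, whose means lay between 0.544 FPKM for Clec11a and 49.9 FPKM for Clec2h. Clec2h encodes a lectin of the Clec2 family known in the gut epithelium. Next came the NAIP genes, with mean levels of 25.2 FPKM for Naip1, 19.0 for Naip2, 17.4 for Naip5 and 13.7 for Naip6, together with Clec2d (22.0 FPKM), Tlr2 (21.3 FPKM) and Nlrc4 (16.1 FPKM). Another 20 genes had counts below this limit, and 11 had no count in any tumor. The 11 were Nlrp2, Nlrp4a, Nlrp4b, Nlrp4e, Nlrp5, Nlrp9a, Nlrp9c and Nlrp14, most of them known as genes of oocytes and early embryos, and the lectins Clec3a, Clec4b2 and Clec4f.

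**Figure D1:**
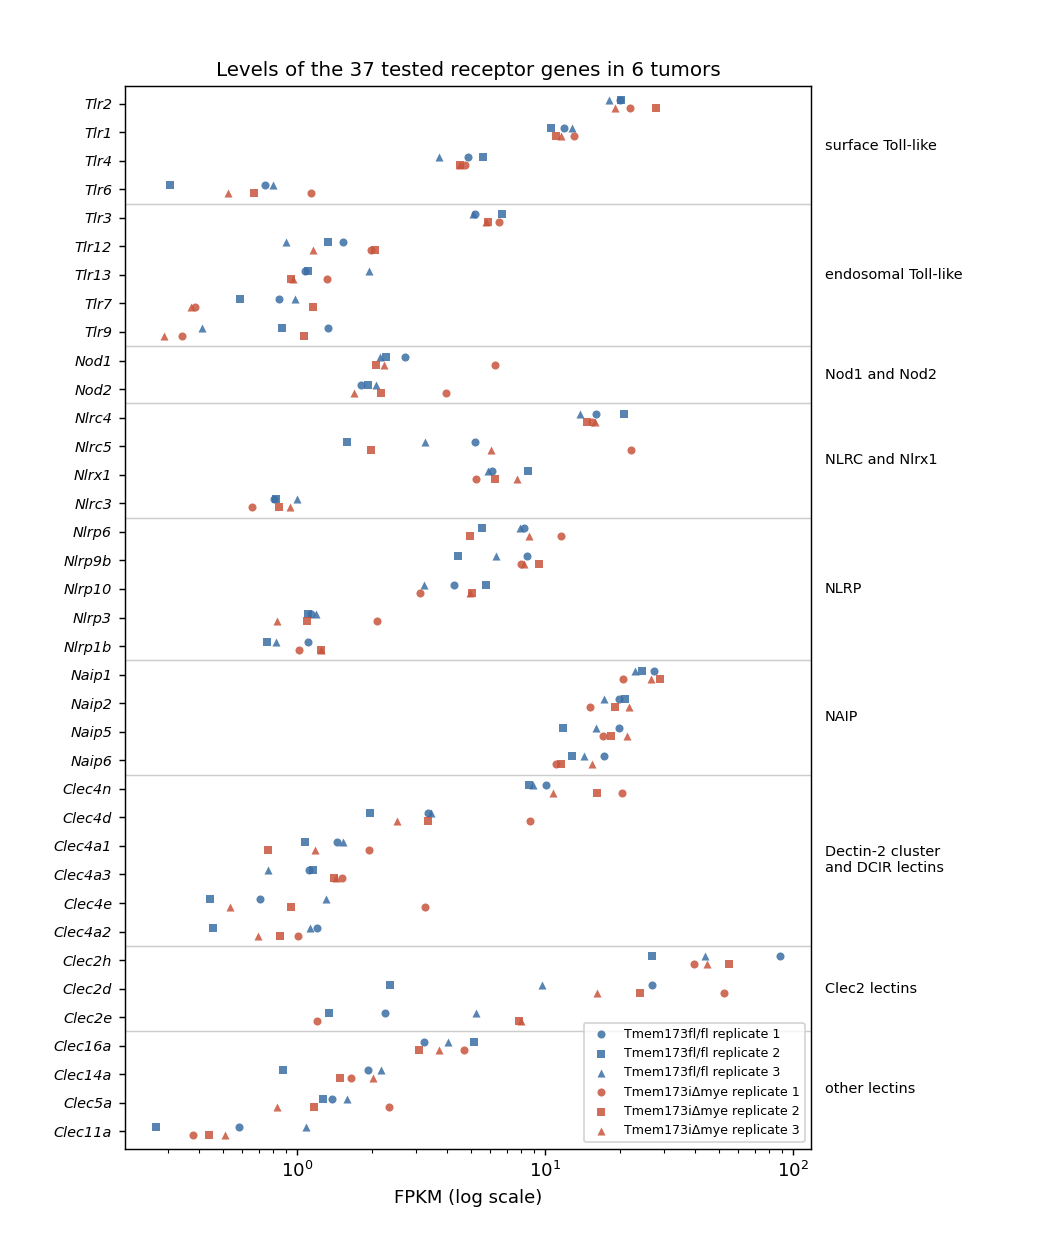
FPKM of the 37 tested receptor genes (log axis) in each of the 6 tumors, grouped by role and ordered by mean level within a role; blue symbols are Tmem173fl/fl tumors, red symbols Tmem173iΔmye tumors, and the symbol shape gives the replicate number. Clec2h lies furthest right, the 4 NAIP genes lie close together, and Nlrc5 and Clec2d are spread over a wide range of tumors' values.

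As shares of the summed FPKM of all 68 genes, which was 226 to 338 per tumor, the NAIP genes took between 18.9% and 31.1% and the Clec2 lectins between 13.8% and 35.5%. Surface Toll-like receptors accounted for 11.4% to 16.6% of it and endosomal ones for 3.14% to 4.89%. The Clec2 share was both lowest (13.8%, replicate 2) and highest (35.5%, replicate 1) within the Tmem173fl/fl group. The share of the Dectin-2 cluster and DCIR lectins was 5.39%, 6.06% and 6.91% in the Tmem173fl/fl tumors and 10.9%, 7.79% and 6.02% in the Tmem173iΔmye tumors, again with overlap.

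**Figure D2:**
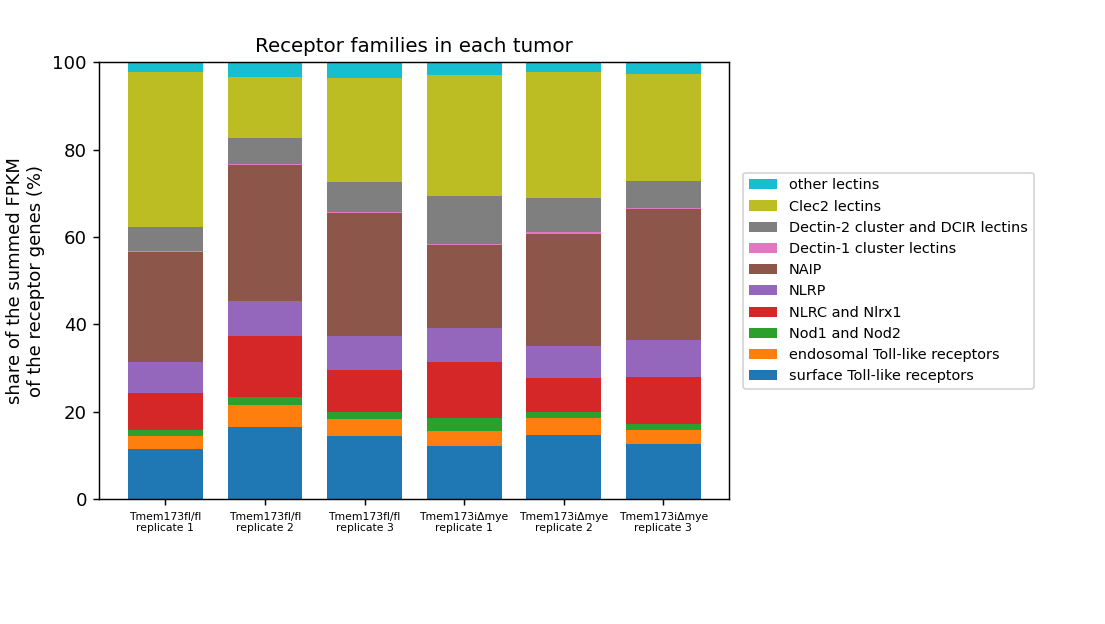
Share of each role group in the summed FPKM of the receptor genes (vertical axis, percent) in each of the 6 tumors, as stacked bars. The NAIP genes (18.9% to 31.1%) and the Clec2 lectins (13.8% to 35.5%) fill large parts of most bars, and the Clec2 part is both smallest and largest in a Tmem173fl/fl tumor.

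To ask whether deletion of STING in myeloid cells of established tumors went with other receptor levels, the counts of the groups were compared by the quasi-likelihood test of edgeR and adjusted by Benjamini-Hochberg over the 16426 genes at or above the limit. Of the 37 tested receptor genes, 22 had a log2 fold change above 0 and 15 below 0, where 49.4% of all genes tested lay above 0. Their median was 0.04, against -0.0042 over all genes tested, with a range from -0.62 (Tlr9) to 1.57 (Nlrc5), and 27 of the 37 lay within 0.5 of 0. The SE had a median of 0.325 and ran from 0.144 to 0.8. None of the 37 had an adjusted p under 0.05 with edgeR (background 0% of all genes), DESeq2 or limma, and the smallest adjusted p from edgeR was 0.742. At an unadjusted p under 0.05 edgeR gave 1 of 37 genes, Clec4n, against a background of 6.14% of all genes. None passed both the fold limit (1 or more on the log2 scale, in either direction) and an unadjusted p under 0.05, as 2.12% of all genes did, although Nlrc5 and Clec2d passed the fold limit alone. The CPM values of the groups did not overlap for 2 of the 37, Clec4n and Clec4a3, where 12.5% of all genes did not overlap. Read against these shares, the counts of called genes are not a result about the receptor genes. Tmem173iΔmye replicate 1 was the tumor with the highest value for 14 of the 37 receptor genes (37.8%), and for 24.9% of all genes tested.

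**Figure D3:**
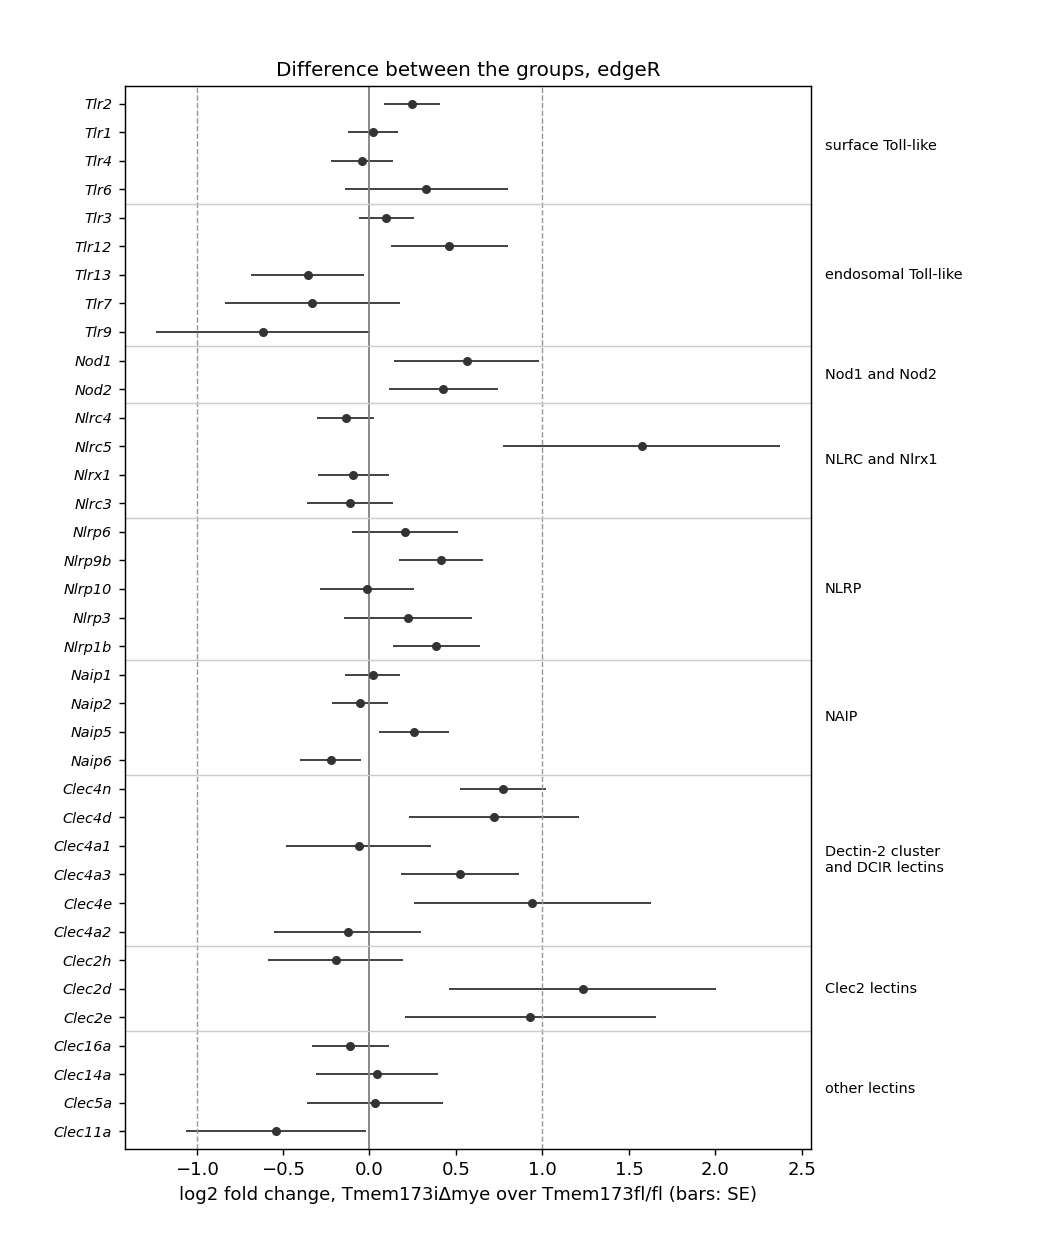
Log2 fold change of Tmem173iΔmye over Tmem173fl/fl (horizontal axis) with its SE (bars) for the 37 tested receptor genes, in the order of the plot of levels. Nlrc5 at 1.57 and Clec2d at 1.23 lie beyond the dashed lines at -1 and 1, with wide SE, and 27 of the 37 lie within 0.5 of 0.

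The abundant surface Toll-like receptors varied little between tumors. Tlr2, which senses bacterial lipoproteins together with Tlr1 or Tlr6, had 943, 912 and 915 counts in Tmem173fl/fl tumors and 1050, 1354 and 912 in the Tmem173iΔmye tumors. Replicate 2 of the Tmem173iΔmye group was highest and replicate 3 equalled the lowest control count, so the groups overlapped (59.0 ± 3.55 and 69.9 ± 14.0 CPM, SD, n = 3 each). Its log2 fold change was 0.24 (SE 0.163, adjusted p = 0.756), and 0.08 without Tmem173iΔmye replicate 2. For Tlr1 the counts were 620, 525 and 720 against 695, 591 and 614, a difference of 0.020 on the log2 scale (SE 0.144), the smallest SE among the 37 genes. Tlr4, the receptor of bacterial lipopolysaccharide, had 425, 466 and 348 counts in Tmem173fl/fl and 420, 401 and 398 counts in Tmem173iΔmye tumors (log2 fold change -0.045, SE 0.179). Its Tmem173iΔmye tumors lay wholly inside the control range. Tlr6 was less abundant, with 17 to 67 counts per tumor (0.33, SE 0.471). Tlr1 and Tlr6 share part of their sequence: 15.4% of the 50-base stretches of Tlr1 transcripts also occur in another gene, mostly Tlr6, so reads of these stretches could not be told apart.

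Tlr5, the receptor of bacterial flagellin, was below the limit with a mean of 0.47 FPKM and was fitted only when all 30939 genes with a count were kept. It had 31, 52 and 62 counts in Tmem173fl/fl tumors and 24, 25 and 20 counts in the Tmem173iΔmye tumors. All 3 Tmem173iΔmye values were below the lowest control value, at 1.45 ± 0.16 against 3.07 ± 0.92 CPM (SD, n = 3 each). The log2 fold change was -1.06 (SE 0.412, unadjusted p = 0.02, adjusted p = 0.767). It ran from -1.29 to -0.90 when a tumor was left out, with a sign that the lack of overlap had already set.

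Endosomal Toll-like receptors had log2 fold changes on both sides of 0. Tlr3, a sensor of double-stranded RNA, was the most abundant of them (5.87 FPKM), with 423, 521 and 448 counts against 540, 491 and 476. These ranges overlapped, with a log2 fold change of 0.10 (SE 0.158). Tlr12, which senses profilin of parasites, had 76, 63 and 48 counts in Tmem173fl/fl and 100, 104 and 58 in Tmem173iΔmye tumors, or 0.46 on the log2 scale (SE 0.338, adjusted p = 0.759). Tlr7, a sensor of single-stranded RNA, had 54, 36 and 67 counts against 25, 76 and 24. Tlr9, the sensor of CpG-rich DNA, had 72, 45 and 24 counts against 19, 59 and 16. For both genes Tmem173iΔmye replicates 1 and 3 lay below every control tumor and replicate 2 within the control range or above it. The log2 fold changes were -0.33 (SE 0.506) for Tlr7 and -0.62 (SE 0.619) for Tlr9, with adjusted p-values of 0.879 and 0.812. Without Tmem173iΔmye replicate 2 they came to -1.09 and -1.45, both past the fold and unadjusted p limits but with an adjusted p of 0.845 each. This tumor was the only one of its group not below every control, so leaving it out had to enlarge both differences. These values are therefore no support for a lower level of either gene.

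B cells express Tlr7 and Tlr9, and the 6 B cell markers counted here (Ms4a1, Cd79a, Cd79b, Pax5, Fcrla and Blk, none at 0 in every tumor) differed widely between tumors of 1 group. They summed to 101, 17.6 and 5.52 CPM in the Tmem173fl/fl tumors and 7.01, 55.9 and 5.79 CPM in the Tmem173iΔmye tumors. The Tmem173iΔmye tumor that was high in Tlr7 and Tlr9 was also high in B cell markers, and Tmem173fl/fl replicate 1 was highest in both Tlr9 and B cell markers. Tlr7, however, was highest among the controls in replicate 3, where these markers were lowest. The 4 markers of plasmacytoid dendritic cells summed to 143, 24.9 and 101 CPM against 93.5, 144 and 96.8 CPM. Most of this sum was Klk1 (2173, 355 and 1656 counts against 1444, 2252 and 1480). Siglech had 11, 8 and 13 counts against 26, 12 and 29, and Ccr9 had 21, 10 and 14 against 9, 16 and 11. Cox6a2 had at most 2 counts in a tumor. The part of B cells and of plasmacytoid dendritic cells in the values of Tlr7 and Tlr9 was not tested. The other endosomal receptors were Tlr13, a sensor of bacterial ribosomal RNA (log2 fold change -0.36, SE 0.325), and, below the limit, Tlr8 with 23 to 31 counts and Tlr11 with 0 to 6 counts per tumor.

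Nod1 and Nod2 were each high in a single tumor. Nod1 had 215, 173 and 183 counts in Tmem173fl/fl tumors and 504, 169 and 180 counts in the Tmem173iΔmye tumors. Nod2, whose human counterpart is a susceptibility gene of Crohn's disease, had 141, 145 and 174 counts against 315, 174 and 134. In both, Tmem173iΔmye replicate 1 was highest and the other tumors of that group were close to or within the control range. The log2 fold changes of 0.56 (SE 0.419) for Nod1 and 0.43 (SE 0.317) for Nod2 came to -0.14 and -0.0053 without this tumor. Their adjusted p-values were 0.762 and 0.761.

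Nlrc5, a NOD-like protein that acts in the nucleus as the transactivator of MHC class I genes, had the highest log2 fold change of the 37. It is encoded on the plus strand of chromosome 8 (GRCm38, 94434356 to 94527272), with 693, 201 and 466 counts in Tmem173fl/fl tumors and 2986, 271 and 813 counts in the Tmem173iΔmye tumors, or 28.8 ± 15.8 and 85.8 ± 90.6 CPM (SD, n = 3 each). Tmem173iΔmye replicate 1 stood above all others, and replicate 2 of that group lay below 2 of the 3 controls. The log2 fold change of 1.57 (SE 0.8, unadjusted p = 0.086, adjusted p = 0.742) came to 0.25 without Tmem173iΔmye replicate 1 and to 2.06 without Tmem173iΔmye replicate 2. Its 7 listed target genes (H2-K1, H2-D1, H2-T23, B2m, Tap1, Tapbp and Psmb9) all had log2 fold changes above 0 (against 49.4% of all genes), with a median of 1.06, and each was highest in Tmem173iΔmye replicate 1. Only Psmb9, an immunoproteasome subunit, had an unadjusted p under 0.05, with 600, 165 and 318 counts against 2473, 412 and 666 (log2 fold change 1.70, SE 0.707, unadjusted p = 0.0439, adjusted p = 0.742). B2m, the light chain of MHC class I, had 1.35 (SE 0.606), and Tap1, which carries peptides to these molecules, had 1.30 (SE 0.602). Without Tmem173iΔmye replicate 1 the median of the 7 was 0.26.

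Nlrc4, Nlrx1 and Nlrc3 had log2 fold changes near 0. Nlrc4, the inflammasome partner of the NAIP proteins, had 1183, 1475 and 1092 counts against 1155, 1112 and 1191 (log2 fold change -0.14, SE 0.163, adjusted p = 0.838). The Tmem173iΔmye tumors fell inside the control range. Nlrx1, a mitochondrial member of the family, had 545, 735 and 567 counts against 482, 575 and 696 (log2 fold change -0.09, SE 0.205), and 11.9% of its exonic bases overlap a gene model on the opposite strand, whose reads a library without strand information cannot separate. Nlrc3 had a log2 fold change of -0.11 (SE 0.249).

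Among the 17 NLRP genes 5 were tested, and 4 of the 5 had log2 fold changes above 0. Nlrp6, known in the intestinal epithelium, was the most abundant with a mean of 7.82 FPKM. It had 654, 424 and 676 counts in Tmem173fl/fl tumors and 938, 404 and 689 counts in the Tmem173iΔmye tumors. Tmem173iΔmye replicate 1 was highest, replicate 3 was just above the controls and replicate 2 was below them. The log2 fold change was 0.21 (SE 0.305, adjusted p = 0.874). Nlrp9b, a sensor of viral RNA in intestinal epithelial cells, had 493, 247 and 395 counts against 473, 564 and 483. The highest control value lay within the range of the Tmem173iΔmye tumors (log2 fold change 0.41, SE 0.243, adjusted p = 0.742), and the difference came to 0.67 without Tmem173fl/fl replicate 1 (unadjusted p = 0.0183) and to 0.20 without Tmem173fl/fl replicate 2. Nlrp3, the inflammasome sensor best known in macrophages, had 72, 67 and 81 counts against 135, 71 and 53. Here too Tmem173iΔmye replicate 1 was highest, and the log2 fold change was 0.22 (SE 0.369), or -0.25 without it. Nlrp1b had 0.39 (SE 0.252) and Nlrp10 -0.012 (SE 0.272). Nlrp12 stayed below the limit with 8 to 28 counts per tumor, as did Nlrp1a, Nlrp4c and Nlrp4f.

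The NAIP genes lie next to each other on chromosome 13 and are so alike that counts of the single genes are uncertain. Of the 50-base stretches of their transcripts, 31.5% in Naip1, 19.1% in Naip2, 36.8% in Naip5 and 21.5% in Naip6 also occur in another gene, in each case mostly another Naip gene. The stretch of coding exon printed here was chosen as the first of Naip1 with the fewest differences from the other Naip genes. It is therefore an example of their closest likeness and does not measure the extent of it. Read on the minus strand of GRCm38, this stretch is the same in all 4 genes: chr13:100427177-100427236 in exon 10 of Naip1, chr13:100161916-100161975 in exon 10 of Naip2, chr13:100223248-100223307 in exon 9 of Naip5 and chr13:100300535-100300594 in exon 9 of Naip6. It has no capitals because none of its 60 bases differ.
Naip1, Naip2, Naip5 and Naip6: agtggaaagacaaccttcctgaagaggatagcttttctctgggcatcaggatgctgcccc

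With this limit, the NAIP genes had log2 fold changes between -0.22 and 0.26. Naip1, the receptor of the type III secretion needle protein, had 2380, 2026 and 2140 counts in Tmem173fl/fl and 1809, 2563 and 2322 counts in Tmem173iΔmye tumors (log2 fold change 0.018, SE 0.161). Naip2, the receptor of the secretion rod protein, had 1508, 1525 and 1403 counts against 1164, 1486 and 1660 (-0.06, SE 0.162). For both, the Tmem173iΔmye tumors spread to either side of the controls. The flagellin receptors Naip5 and Naip6 had log2 fold changes of 0.26 (SE 0.202) and -0.22 (SE 0.177).

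The lectins of the Dectin-2 cluster and the DCIR lectins, neighbours on chromosome 6, held both tested genes whose groups did not overlap. These were 2 of the 6 tested there, where 12.5% of all genes tested did not overlap, and so few genes are not a result about the cluster. Clec4n, which encodes Dectin-2, a receptor of fungal mannans on macrophages and other myeloid cells, lies on the plus strand from 123229843 to 123247021 (GRCm38). Its counts were 225, 182 and 213 in Tmem173fl/fl tumors. In the Tmem173iΔmye tumors it had 460, 369 and 240 counts, each above the highest control, with a mean of 22.5 ± 6.91 CPM against 13.2 ± 1.29 CPM (SD, n = 3 each). The log2 fold change was 0.77 (SE 0.249, unadjusted p = 0.0151, adjusted p = 0.742), and it ran from 0.54 to 0.99 when a tumor was left out. Without Tmem173iΔmye replicate 1 its unadjusted p was 0.0581. Clec4a3, a DCIR-type lectin, had 23, 23 and 17 counts against 32, 30 and 30, few reads but without overlap in CPM (1.35 ± 0.286 and 1.94 ± 0.0701, SD, n = 3 each). Its log2 fold change was 0.52 (SE 0.342, adjusted p = 0.756).

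Clec4d and Clec4e, adjacent genes of the same cluster, encode MCL and Mincle, which together sense mycobacterial glycolipid and, for Mincle, products of dead cells. Clec4d had 84, 47 and 93 counts in Tmem173fl/fl tumors and 220, 86 and 64 counts in the Tmem173iΔmye tumors. Clec4e had 55, 33 and 108 counts against 257, 75 and 42. In both genes Tmem173iΔmye replicate 1 was highest by far, and the other Tmem173iΔmye tumors lay within the control range. The log2 fold changes of 0.72 (SE 0.489) and 0.94 (SE 0.684) came to 0.0008 and -0.15 without this tumor, and their adjusted p-values were 0.757 and 0.759. Clec4a1 (-0.06, SE 0.419) and Clec4a2 (-0.13, SE 0.425) were close to 0, and Clec4a4 and Clec4b1 had at most 3 counts in a tumor.

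The sum of the neutrophil markers, 8 of 8 detected, was highest in the same tumor as Clec4d and Clec4e, although Ly6g, one of the 8, had 1573, 571 and 1454 counts in Tmem173fl/fl and 993, 958 and 894 counts in Tmem173iΔmye tumors and was not highest there. The markers summed to 216, 71.1 and 182 CPM in the Tmem173fl/fl tumors and 397, 134 and 117 CPM in the Tmem173iΔmye tumors. The ranges of the groups overlapped (71.1 to 216 and 117 to 397 CPM), and no marker of this list was at 0 in all tumors. Macrophage markers, 10 of 10 detected, summed to 482, 468 and 332 CPM in the Tmem173iΔmye tumors, where Clec4n had its 460, 369 and 240 counts, and to 397, 306 and 414 CPM in the Tmem173fl/fl tumors. The part of these cells in the values of the lectins was not tested.

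**Figure D4:**
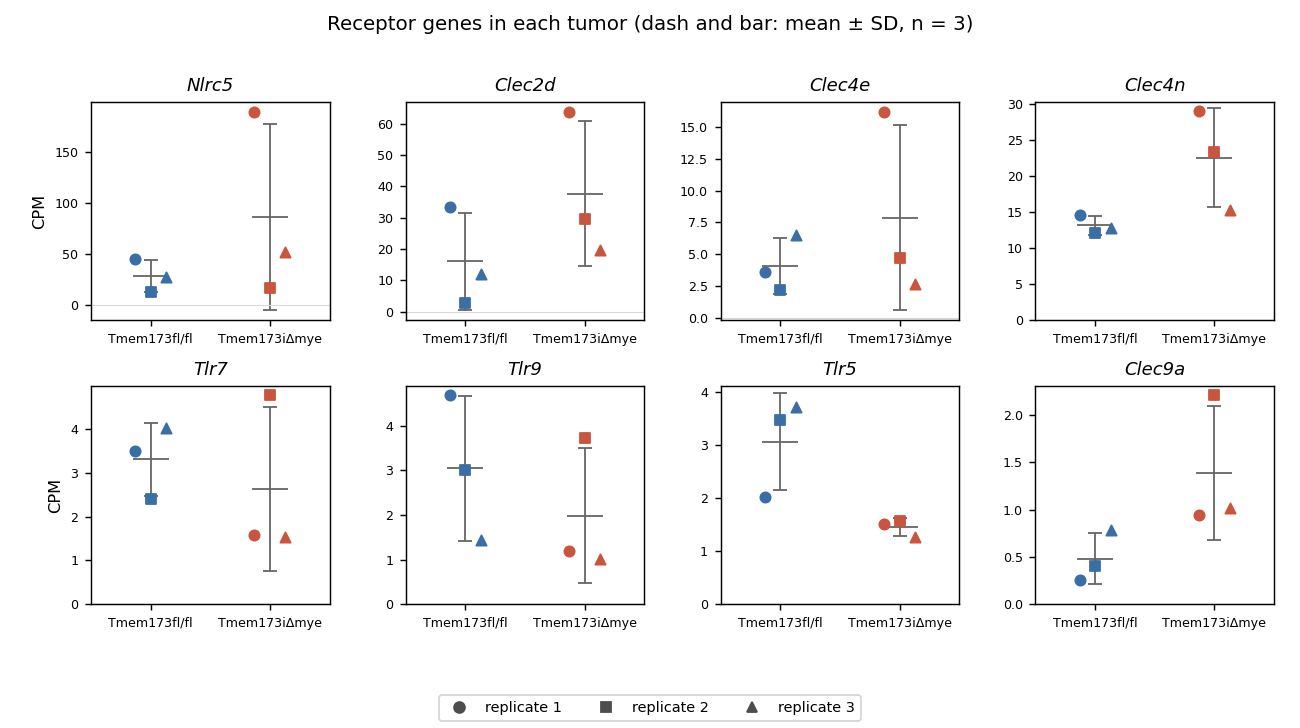
CPM of 8 receptor genes in each tumor (points, symbol shape by replicate number) with the mean and SD of each group (dash and bar, n = 3), on linear axes that differ between panels. The 8 genes were picked for display and not by a rule. Nlrc5, Clec2d and Clec4e are highest in Tmem173iΔmye replicate 1, and Tlr7 and Tlr9 are high in Tmem173iΔmye replicate 2 alone of its group. Clec4n does not overlap between the groups, as 12.5% of all genes tested did not. Tlr5 and Clec9a, both below the limit on level, do not overlap either, as 9.7% of all genes with a count did not.

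The 250 bases before the RefSeq transcription start of Clec4d and Clec4e are shown because these neighbours varied together from tumor to tumor. Capitals mark the letters GAGGAA or their reverse complement, the core bound by the myeloid factor PU.1, a motif chosen after the values were seen and searched on both strands. The windows, from GRCm38.p6, are chr6:123261857-123262106 on the plus strand for Clec4d and chr6:123289872-123290121 on the minus strand for Clec4e, each written 5′ to 3′ along its gene. The motif stands once in the first and at 2 places, 123 and 56 bases before the start, in the second.
Clec4d: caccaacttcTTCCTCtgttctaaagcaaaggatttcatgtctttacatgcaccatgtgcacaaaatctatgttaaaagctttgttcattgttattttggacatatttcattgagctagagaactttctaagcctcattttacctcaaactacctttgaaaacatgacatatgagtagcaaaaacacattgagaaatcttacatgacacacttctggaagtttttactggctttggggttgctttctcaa
Clec4e: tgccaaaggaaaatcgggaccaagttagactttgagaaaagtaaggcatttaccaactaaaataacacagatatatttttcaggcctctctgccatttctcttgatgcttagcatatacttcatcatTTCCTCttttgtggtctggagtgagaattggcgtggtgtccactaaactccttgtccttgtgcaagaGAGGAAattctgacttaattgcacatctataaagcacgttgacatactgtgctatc
These letters occur in 23.25% of the 32851 RefSeq promoters of this length and in 22 of the 69 promoters that the table holds for 58 of the receptor genes, and a match does not show that a factor is bound.

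Clec2 lectins, ligands of NK receptors of the Nkrp1 family, varied widely between tumors of the same group. Clec2d, the ligand of the inhibitory receptor Nkrp1b, had 512, 43 and 198 counts in Tmem173fl/fl tumors and 1010, 470 and 308 counts in the Tmem173iΔmye tumors. Replicate 1 was highest in each group and replicate 2 of the controls far below the rest, so that the groups overlapped at 16.0 ± 15.6 and 37.7 ± 23.2 CPM (SD, n = 3 each). The log2 fold change was 1.23 (SE 0.773, adjusted p = 0.752), with a range from 0.62 without Tmem173iΔmye replicate 1 to 2.34 without Tmem173fl/fl replicate 1, where it passed the fold and unadjusted p limits. Clec2h had 3745, 1094 and 2001 counts against 1712, 2381 and 1932, and its Tmem173iΔmye tumors lay inside the wide control range. Its log2 fold change of -0.20 (SE 0.391) came to 0.39 without Tmem173fl/fl replicate 1. Clec2e had 74, 42 and 186 counts against 40, 263 and 264, the lowest and both highest values in the same group (log2 fold change 0.93, SE 0.723, adjusted p = 0.77). Clec2g, Clec2i and Clec2l had at most 18 counts in a tumor.

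Natural killer cells carry the receptors of these ligands, and their 3 markers (Ncr1, Klrb1c and Eomes) summed to 0.78, 0.267 and 0.42 CPM in the Tmem173fl/fl tumors and 1.26, 1.83 and 1.78 CPM in the Tmem173iΔmye tumors. The groups did not overlap, as 9.7% of all single genes with a count did not. However, 0 of the 3 markers reached the limit on level, and all rest on 22 counts or fewer in any tumor. Eomes had 10, 4 and 3 counts against 16, 15 and 22, whereas Klrb1c had 2, 0 and 1 against 1, 9 and 2 and Ncr1 0, 0 and 3 against 3, 5 and 4. The part of natural killer cells in the values of the Clec2 genes was not tested.

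The start regions of the 3 tested Clec2 genes are printed because Clec2e and Clec2h, which differed in their course over the tumors, are alike there. Capitals mark the letters GAAANNGAA or their reverse complement, the core of the interferon-stimulated response element, again chosen after the values were seen and searched on both strands. The windows of 250 bases before the RefSeq start (GRCm38.p6) are chr6:129180365-129180614 on the plus strand for Clec2d, chr6:129100904-129101153 on the minus strand for Clec2e and chr6:128662135-128662384 on the plus strand for Clec2h.
Clec2d: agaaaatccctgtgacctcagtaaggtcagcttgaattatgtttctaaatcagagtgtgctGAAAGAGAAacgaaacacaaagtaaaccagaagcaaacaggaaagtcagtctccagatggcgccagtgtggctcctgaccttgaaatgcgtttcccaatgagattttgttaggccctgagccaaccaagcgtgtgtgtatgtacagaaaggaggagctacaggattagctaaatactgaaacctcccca
Clec2e: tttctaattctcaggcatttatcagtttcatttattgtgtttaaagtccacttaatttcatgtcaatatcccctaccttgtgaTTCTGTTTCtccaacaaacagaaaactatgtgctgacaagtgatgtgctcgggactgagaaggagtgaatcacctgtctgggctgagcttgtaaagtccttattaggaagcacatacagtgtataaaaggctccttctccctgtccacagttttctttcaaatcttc
Clec2h: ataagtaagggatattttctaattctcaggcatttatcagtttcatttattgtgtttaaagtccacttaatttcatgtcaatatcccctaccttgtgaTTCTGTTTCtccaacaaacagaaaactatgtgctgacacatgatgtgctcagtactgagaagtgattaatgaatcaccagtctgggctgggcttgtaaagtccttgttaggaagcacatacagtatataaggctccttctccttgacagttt
The match starts 189 bases before the start of Clec2d, 167 before that of Clec2e and 152 before that of Clec2h. Shifted by 15 bases, the windows of Clec2e and Clec2h were identical at 169 of 235 bases (71.9%), including an unbroken run of 121 bases that holds the match. The letters occur in 7.13% of the 32851 promoters and in 10 of the 69 promoters of receptor genes, and no binding was measured.

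No gene of the Dectin-1 cluster passed the limit on level. Clec9a, a receptor of dead-cell actin on cross-presenting dendritic cells, had 4, 6 and 13 counts in Tmem173fl/fl tumors and 15, 35 and 16 counts in the Tmem173iΔmye tumors. Every Tmem173iΔmye tumor was above the highest control (0.48 ± 0.269 and 1.39 ± 0.707 CPM, SD, n = 3 each), and the log2 fold change without the filter was 1.52 (SE 0.587, unadjusted p = 0.0194, adjusted p = 0.767). Of its exonic bases 5.6% also belong to Clec1b. The 7 markers of conventional dendritic cells, of which none was at 0 in every tumor, summed to 21.8 to 38.2 CPM in Tmem173fl/fl and 29.9 to 43.7 CPM in Tmem173iΔmye tumors. Most of this sum was Itgax (389, 377 and 211 counts against 410, 432 and 345), so it says little about the other markers. The part of these cells in the values of Clec9a was not tested. Clec1a, an endothelial and dendritic cell lectin named after its values were seen, had 20, 22 and 28 counts against 14, 17 and 8, without overlap in CPM (log2 fold change -0.83, SE 0.488, unadjusted p = 0.106). Clec12a had 6 to 54 counts per tumor, and Clec1b and Clec12b had at most 5. Clec7a, which encodes Dectin-1, the receptor of fungal β-glucan, is listed as a polymorphic pseudogene and so is not among the 68 genes. It had 309, 368 and 324 counts against 627, 518 and 251, with the lowest and both highest values in the Tmem173iΔmye group (log2 fold change 0.46, SE 0.313, adjusted p = 0.757). This came to 0.18 without Tmem173iΔmye replicate 1 and to 0.76 without Tmem173iΔmye replicate 3 (unadjusted p = 0.00684).

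Of the remaining lectins, Clec10a, a galactose-binding lectin of macrophages and dendritic cells, was below the limit with 15, 5 and 12 counts in Tmem173fl/fl tumors and 20, 29 and 23 counts in the Tmem173iΔmye tumors. The Tmem173iΔmye tumors were all higher (0.676 ± 0.323 and 1.52 ± 0.286 CPM, SD, n = 3 each), with a log2 fold change without the filter of 1.17 (SE 0.52, unadjusted p = 0.0388, adjusted p = 0.767). Of its 50-base stretches 9.0% also occur in another gene, mostly its paralog Mgl2, which had 69, 51 and 8 counts against 82, 153 and 32. Clec16a, a broadly expressed regulator of mitophagy, had 422, 646 and 568 counts against 625, 414 and 492 (log2 fold change -0.11, SE 0.222), with each group spanning most of the other. Clec14a, an endothelial membrane protein, had 138, 60 and 166 counts against 120, 109 and 145 (0.04, SE 0.353). Clec5a, a myeloid receptor that signals through DAP12, had 0.03 (SE 0.395), and Clec11a, a secreted growth factor, -0.54 (SE 0.52). Clec4g and Clec18a had at most 2 counts in a tumor.

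In all, 7 of the 20 genes with counts below the limit had at most 3 counts in every tumor, too few for a fold change, and 13 had more. In the fit of all 30939 genes, 3 of the 20 (Tlr5, Clec9a and Clec10a) passed both limits on fold and unadjusted p, where 2.82% of all genes did, and 4 (these 3 and Clec1a) did not overlap between the groups, where 9.7% of all genes did not. Both shares are over genes above and below the limit together, not over genes of this low level alone. The adjusted p of each of the 4 was 0.767. Tlr5, Clec9a and Clec10a no longer passed both limits when some tumors were left out: Tlr5 had -0.97 without Tmem173fl/fl replicate 2, -0.90 without Tmem173fl/fl replicate 3 and -0.97 without Tmem173iΔmye replicate 3. Clec9a had unadjusted p-values of 0.144 without Tmem173iΔmye replicate 2 and 0.0634 without Tmem173fl/fl replicate 1, and Clec10a had p-values between 0.0599 and 0.114 without any 1 of Tmem173fl/fl replicates 2 and 3 and Tmem173iΔmye replicates 2 and 3. With at most 62 counts per tumor, these values have wide counting error.

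Genes that carry the signal of these receptors were followed as lists. Of 12 genes of Toll-like receptor ligand binding, folding and trafficking, 8 had log2 fold changes above 0 (background 49.4% of all genes) with a median of 0.24, or 0.12 without Tmem173iΔmye replicate 1, and 2 had an unadjusted p under 0.05 (background 6.14%, also for the lists that follow), both higher in Tmem173iΔmye tumors. These were Slc15a3, an endolysosomal transporter of muramyl dipeptide and histidine, with 211, 258 and 235 counts against 443, 387 and 280 (0.64, SE 0.211, unadjusted p = 0.0169), and Cnpy3, a chaperone of Toll-like receptors (0.38, SE 0.14, unadjusted p = 0.0284). Of the 30 genes of Toll-like receptor signalling, 29 were tested, of which 11 were above 0 and 18 below 0 with a median of -0.05. Irf7, an interferon regulatory factor downstream of Tlr7 and Tlr9, had 986, 584 and 605 counts against 2042, 995 and 1211 (0.95, SE 0.316, unadjusted p = 0.0178). Its groups overlapped in CPM, at 64.1 in Tmem173fl/fl replicate 1 and 62.7 in Tmem173iΔmye replicate 2, and Tmem173iΔmye replicate 1 was highest (129 CPM). The kinase gene Ikbke had 0.36 (SE 0.139, unadjusted p = 0.0318). Traf6, a ubiquitin ligase of the MyD88 pathway, had -0.35 (SE 0.172). Every adjusted p of the lists was 0.742 or higher.

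Of the 10 genes of NOD signalling, 3 were above 0 and 7 below 0 (median -0.08). Erbin, which binds Nod2, had 4652, 4891 and 5977 counts against 2925, 4197 and 4327, all Tmem173iΔmye tumors being lower (-0.45, SE 0.181, unadjusted p = 0.0396), while Slc15a3 also belongs to this list. Among 14 inflammasome genes 9 were above 0 (median 0.21, or -0.02 without Tmem173iΔmye replicate 1). Il1b, the cytokine that caspase-1 cleaves, had 320, 280 and 277 counts against 1743, 518 and 352 (1.56, SE 0.545, unadjusted p = 0.0219), without overlap and with Tmem173iΔmye replicate 1 highest. For the 14 genes of lectin receptor signalling, 9 were above 0 and 5 below 0 (median 0.05). Vav1, an exchange factor downstream of Syk, had 510, 476 and 558 counts against 391, 393 and 383 (-0.41, SE 0.13, unadjusted p = 0.0136), with all Tmem173iΔmye tumors lower. Malt1, a partner of Card9 and Bcl10, had -0.26 (SE 0.118, unadjusted p = 0.0628). No gene of the 6 lists had an adjusted p under 0.05 with edgeR.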

How the data were processed

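The authors counted reads per gene and deposited raw counts together with FPKM values made from them; the same table holds their own comparison (fold changes and p-values), which was not used. Per the submitters' processing notes, CASAVA 1.8, fastp, HISAT2 2.0.5, featureCounts 1.5.0-p3 and DESeq2 1.20.0 were used, on poly(A) RNA from a kit that does not mark strand. The deposited FPKM equal the counts divided by gene length, median-of-ratios size factors and the geometric mean of the library totals (largest relative difference 4.9e-08 above 0.01 FPKM). Coordinates of all 68 genes equal those of GENCODE vM21 (GRCm38), whose transcripts gave the shared stretches.

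The counts of 3 and 3 tumors were tested with edgeR 4.0.16 (R 4.3.3; TMM, group as the only term, Benjamini-Hochberg adjustment over 16426 genes with a mean of at least 0.5 FPKM); genes below this limit were fitted among all 30939 genes with a count. CPM are TMM-scaled, and each SE was taken from the size of the log2 fold change over the root of its F value. The scripts were tested on simulated counts. Alternatives were DESeq2 1.42.0, limma 3.58.1 on log2(FPKM + 1) and log2(FPKM + 0.1), other scalings and filters, protein-coding genes alone, the replicate number as a block, Y-linked reads as a covariate and leaving out each tumor. Values per tumor are given for tested genes with an unadjusted p under 0.05 or without overlap, for the 2 most abundant tested genes of each role, for the genes best known in the gut or in myeloid cells, and for up to 3 genes of each signalling list with the lowest p. The receptor genes and all lists were chosen with earlier results of these data known, so their counts are descriptions. Totals of 15329810 to 16533732 counts make 3 counts or fewer per tumor too few for a fold change; this covers counting error alone. A cell marker of the lists is not reported here, and the sum of its list was made without it.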

Additional observations from a re-analysis of the deposited data

How the results depend on the processing

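No receptor gene reached an adjusted p under 0.05 in any alternative, and the lowest adjusted p of a named gene was 0.232. The number past both limits on fold and unadjusted p, 0 of 37, became 5 of 57 without the filter (Clec10a, Clec2d, Clec9a, Nlrc5 and Tlr5), where 2.82% of all genes passed, and ranged from 0 to 3 when a tumor was left out: 1 without Tmem173fl/fl replicate 1 (Clec2d), 1 without Tmem173iΔmye replicate 1 (Clec2e) and 3 without Tmem173iΔmye replicate 2 (Nlrc5, Tlr7 and Tlr9). The share of all genes past both limits was not taken in the fits that left out a tumor. With the replicate number as a block, 2 passed (Clec2d and Nlrc5), also without a share over all genes. In that fit 21 of 37 were above 0 (50.8% of all genes), with a median of 0.10. The numbers past both limits in these fits are therefore not a result about the receptor genes. Same-numbered tumors deviated together with correlations of 0.315, 0.008 and 0.154 over genes, and not every tumor correlated best with its own number, so the numbers were not taken as pairs. Without the filter 33 of 57 genes were above 0, where 47.6% of all genes were. The median log2 fold change was 0.20 at a mean FPKM of at least 1 and ran from -0.0053 to 0.17 when a tumor was left out.

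Of 452 alternative values of 29 named genes 24 were of the opposite sign, in 14 genes. Library totals alone gave Tlr1 -0.0069, and the Y-linked covariate gave Naip1 -0.0004 and Nlrx1 0.0034. This covariate also moved genes whose sign did not turn. Closer to 0 came Clec4n (0.77 to 0.57), Clec4d (0.72 to 0.37) and Clec4e (0.94 to 0.45). Further from 0 lay Tlr7 (-0.33 to -0.59) and Tlr9 (-0.62 to -1.01). When a tumor was left out, the values ran from -0.060 to 0.094 for Tlr1, -0.19 to 0.084 for Tlr4, -0.14 to 0.83 for Nod1, -0.0053 to 0.66 for Nod2, -0.26 to 0.034 for Nlrc4, -0.24 to 0.091 for Nlrx1, -0.10 to 0.47 for Nlrp6, -0.25 to 0.48 for Nlrp3, -0.090 to 0.15 for Naip1, -0.18 to 0.072 for Naip2, -0.15 to 1.45 for Clec4e, -0.52 to 0.39 for Clec2h, -0.28 to 0.070 for Clec16a and -0.26 to 0.29 for Clec14a. The cause was not tested.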
